A study of Equus caballus with 4 samples.

Results

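The genes described are those of oxidative phosphorylation, found on the array by name. They are the probes whose gene name in the deposited files begins with NDUF, SDH, UQCR, COX4 to COX8 or ATP5 and goes on as the names of the subunit genes do. The name CYC1 was searched as well. This gave 163 of the 43603 probes and 57 of the 14603 genes with a name. The rule took in 7 assembly factors of complex I, and it missed the cytochrome *bc*1 complex and nearly all of cytochrome *c* oxidase, whose horse genes are listed under locus numbers or transcript numbers. A further 29 genes, with 101 probes, were therefore found through the RefSeq table of symbols or the description of the probe, and they are kept apart from the 57 throughout.

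Complexes I to IV of the inner mitochondrial membrane pass electrons from NADH and succinate to oxygen, complexes I, III and IV pump protons as they do so, and complex V, the ATP synthase, uses the returning protons to make ATP. Most of their subunits are encoded in the nucleus and a few in mitochondrial DNA, so that the supply from both genomes has to be balanced. In skeletal muscle the content of these complexes rises as myoblasts fuse and mature, and some subunits of cytochrome *c* oxidase are replaced by forms found mainly in heart and skeletal muscle.

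The mRNA of equine satellite cells (ESC) from the semitendinosus muscle of 6-month-old colts was compared on 4 two-colour arrays. The cells had reached day 3 of differentiation, and the treated ones had been exposed for the last 24 h to HMB (*β*-hydroxy-*β*-methylbutyrate), a derivative of leucine, given as 50 µM in the methods and as 50 µg in the sample labels, whereas control cells stayed in differentiation medium. HMB-treated cells carried Cy5 and control cells Cy3 on every array, and the 4 arrays were on 1 slide, so an effect of the dye and an effect of HMB cannot be told apart. The description of each sample calls the cells GO-treated, but the titles and source names say HMB and were followed, and the colt behind each array is not stated.

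Values are log2 ratios of HMB-treated over control cells on arrays 1 to 4, so that a value below 0 stands for less mRNA in HMB-treated cells. A probe was called when limma, fitted across all 27384 tested probes, gave an adjusted *P* of at most 0.05. The *P* values measure only the spread between these 4 arrays. Of all tested probes 6257 (22.8%) were called, and of the 9737 tested genes with a name 2200 (22.6%), 1113 higher (11.4%) and 1087 lower (11.2%) with HMB.

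Among the oxidative phosphorylation genes found by name, 56 of 57 were tested, and each of these gave a signal well above background with either dye on every array. *COX4I2*, the isoform of cytochrome *c* oxidase subunit 4 known from lung, was dim on 3 of the arrays and was not tested. Only 2 of the 56 genes were called, *NDUFA2* lower and *ATP5SL* higher, and 13 had an unadjusted *P* of at most 0.05. The count lay under the share of all named genes in the deposited ratios, a difference that was not tested. The median of the absolute mean ratios was 0.10, compared with 0.15 over all named genes, and 49 genes had an absolute mean under 0.2. The spread over arrays was small as well, with a median SD of 0.11 for these genes and 0.16 for all named genes. Neither comparison was matched for signal intensity.

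**Figure D1:**
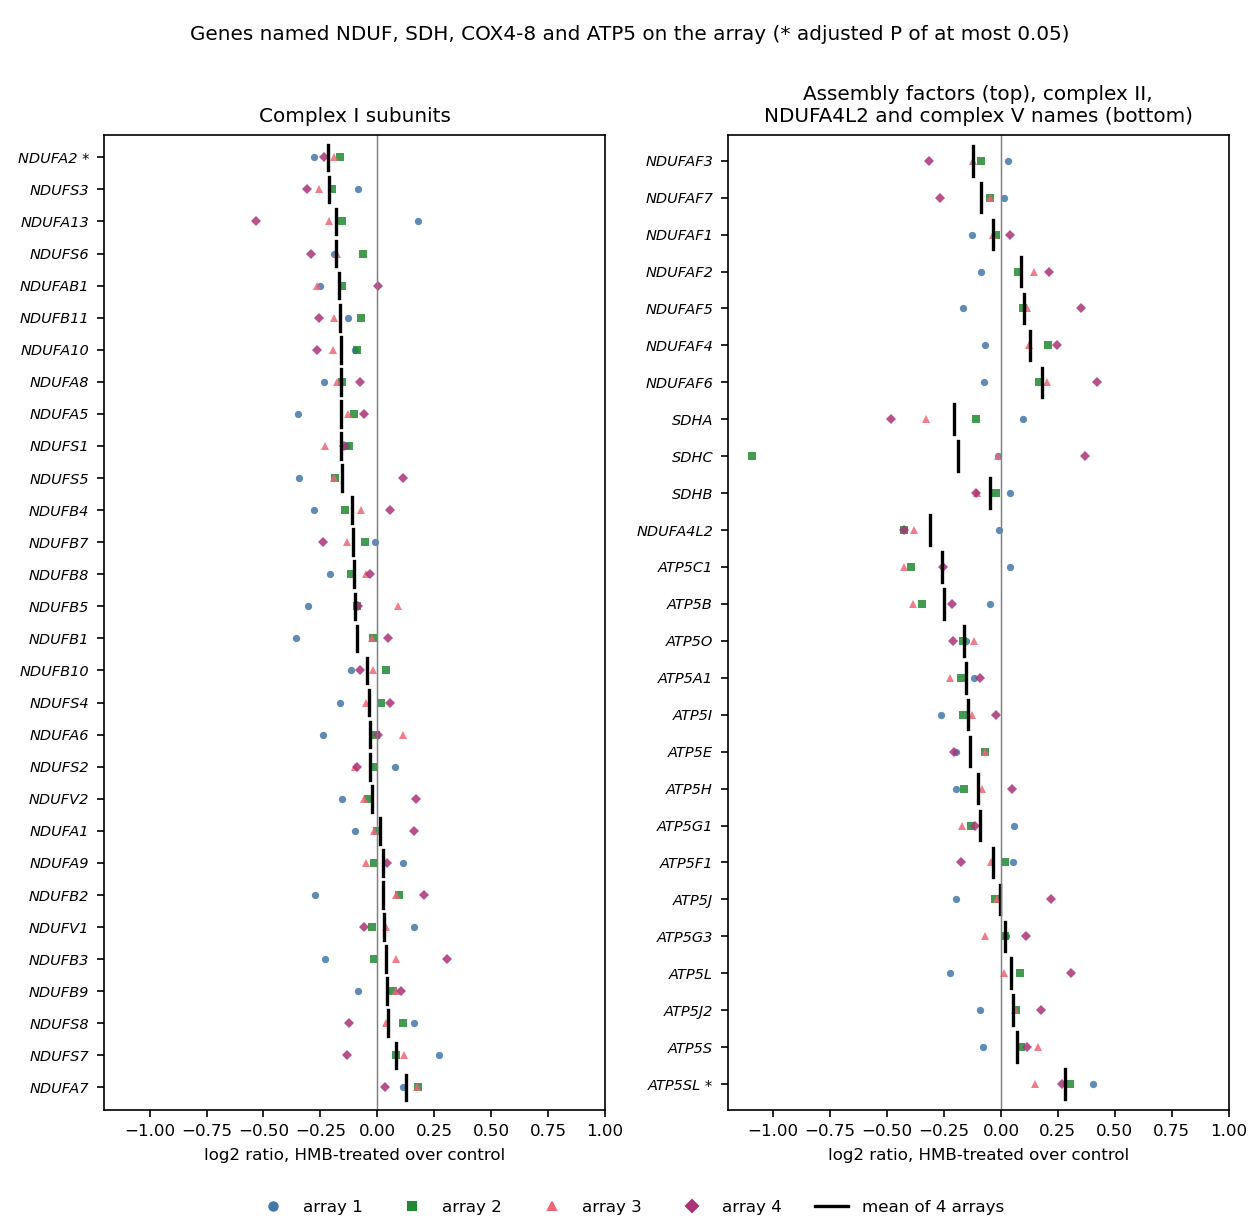
Log2 ratio of HMB-treated over control cells (horizontal axis) of the 56 tested genes found by name, with coloured markers for the 4 arrays and a black bar for their mean. Complex I subunits fill the left panel, and most genes of both panels lie within 0.2 of 0, on the negative side for 38 of 56 means, although without lowess normalisation 44 of 56 were positive.

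The median ratio of the 56 genes was -0.10, -0.04, -0.05 and -0.05 on arrays 1 to 4 and -0.09 for the mean ratios, but it turned to 0.14 when ratios were centred on each array's median without lowess normalisation. All named genes had medians of 0.04, 0.02, 0.02 and -0.00 on the same arrays. The sign of the group as a whole thus depends on the dye normalisation. So does the count, with 11 of the 56 genes called higher and 1 lower without lowess normalisation, where 992 of all 9737 named genes were called higher and 1364 lower. Normexp background correction with a new loess normalisation, which changes both steps, gave 1 higher and 7 lower of the 56. Of all 9737 named genes 903 were higher and 1121 lower there. In the 36 genes with more than 1 tested probe the ratios of the probes spanned a median of 0.06 and at most 0.29, and 9 of the 56 genes had a probe of each sign.

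Complex I, the NADH dehydrogenase, was covered by 30 tested subunit genes. Its mean ratios ran from -0.22 to 0.12 with a median of -0.09, which became 0.10 without lowess normalisation. The 7 core subunits, which hold the flavin and the iron-sulphur clusters or line the path to the quinone, had a median of -0.02, and the 23 accessory subunits had one of -0.10, both positive without lowess normalisation at 0.15 and 0.09. *NDUFA2*, an accessory subunit of the matrix arm, had ratios of -0.28, -0.17, -0.19 and -0.23. It was lower in HMB-treated cells on every array, and its mean fell by 0.22 on the log2 scale (SD 0.05, *n* 4; adjusted *P* 0.0443). None of its other probes was called, although all 5 lay between -0.22 and -0.17, and the call was lost whenever an array was left out and without lowess normalisation (-0.15).

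At the other end of complex I stood *NDUFA7*, an accessory subunit, with ratios of 0.11, 0.18, 0.18 and 0.03. All 4 were above 0, and the mean of 0.12 was not called (adjusted *P* 0.187), but the gene was called higher without lowess normalisation at 0.32. *NDUFS3*, a core subunit of the matrix arm, came close to the threshold with -0.08, -0.20, -0.26 and -0.31 (mean -0.21, adjusted *P* 0.0620) and was called after normexp correction and loess (-0.27) and with an intensity trend. *NDUFA13*, also named GRIM-19, differed most between arrays, from 0.18 on array 1 to -0.53 on array 4. In all, 10 of the 30 subunit genes were below 0 on every array. A further 4 complex I genes found through other names, *NDUFA3*, *NDUFC1*, *NDUFV3* and *NDUFA12*, had means from -0.16 to -0.06, and none was called by limma or had an unadjusted *P* of at most 0.05. *NDUFA3* was called after normexp correction and loess (-0.22), but its mean was -0.01 without lowess normalisation.

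The 7 assembly factors of complex I, which help to build the enzyme without staying in it, had a median of 0.09, and the median was also positive under both other scalings (0.07 and 0.09). *NDUFAF6* was the highest of them, with -0.07, 0.17, 0.20 and 0.42. Array 1 was below 0 and the others above it, and the mean of 0.18 was not called (adjusted *P* 0.193). None of the 7 was called by limma or had an unadjusted *P* of at most 0.05, and none was called under any alternative.

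Complex II, succinate dehydrogenase, was represented by *SDHA*, *SDHB* and *SDHC*, with a median of -0.19. *SDHA* encodes the flavoprotein that oxidises succinate and had ratios of 0.10, -0.11, -0.33 and -0.48 (mean -0.21, SD 0.25, adjusted *P* 0.195). *SDHC*, a membrane anchor, had -0.01, -1.10, -0.01 and 0.37. Its mean of -0.19 (adjusted *P* 0.576) rested on array 2, and the median of the complex moved to -0.06 without that array. *SDHB*, the iron-sulphur subunit, had 0.04, -0.02, -0.11 and -0.11. None of the 3 was called by limma or under any alternative, and none had an unadjusted *P* of at most 0.05.

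Complex III, the cytochrome *bc*1 complex, had no gene under the names searched and 8 tested genes under other names. All 8 mean ratios were negative, with a median of -0.18, which turned to 0.20 without lowess normalisation. *CYC1*, the cytochrome *c*1 subunit that hands electrons to cytochrome *c*, had -0.08, -0.19, -0.43 and -0.39. It lay below 0 on every array but missed the threshold (mean -0.27, adjusted *P* 0.0553), as did *UQCRB* (mean -0.22, adjusted *P* 0.0553). None of the 8 was called by limma, 5 had an unadjusted *P* of at most 0.05, and the alternatives called between 0 and 3, with 1 higher and 0 lower without lowess normalisation and 0 higher and 2 lower after normexp correction and loess. *CYC1* was called after normexp correction and loess (-0.30) and had a mean of -0.01 without lowess normalisation. *UQCRC1*, a core protein, was nearest to 0 with 0.07, -0.23, -0.11 and -0.05 (mean -0.08, adjusted *P* 0.453).

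**Figure D2:**
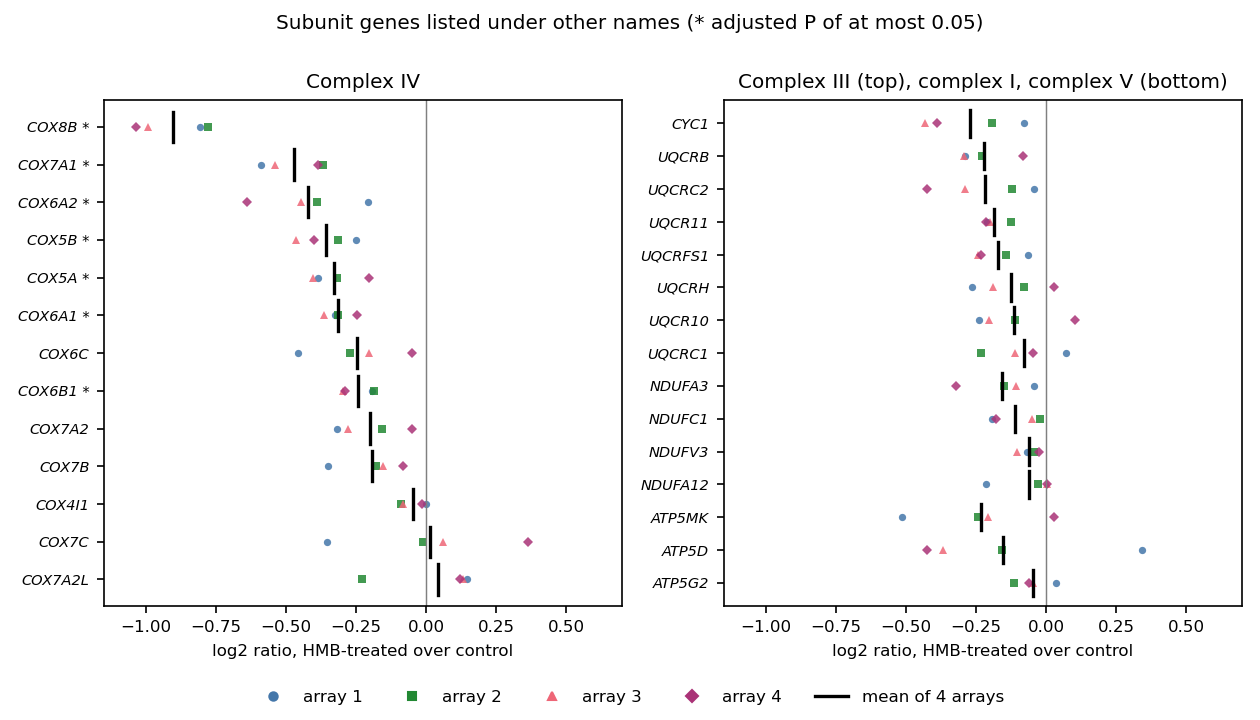
Log2 ratio of HMB-treated over control cells (horizontal axis) of the subunit genes found through other names, with coloured markers for the 4 arrays, a black bar for their mean and a star for called genes. The 7 called genes are all in complex IV, and *COX8B* lies farthest from 0 at -0.90, while *COX5B*, *COX6A1* and *COX6B1* turned positive without lowess normalisation.

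Complex IV, cytochrome *c* oxidase, held the largest mean ratios of the subunit genes in the deposited values. Of its 12 tested subunit genes, all found through other names, 7 were called and all 7 were lower with HMB, beside the 11.2% of all named genes that were lower. Without lowess normalisation 3 were called higher and 3 lower, and after normexp correction and loess 1 higher and 5 lower. The median was -0.28 and turned to 0.14 without lowess normalisation. The 12 comprise 3 genes for the muscle forms of subunits 6A, 7A and 8 and 9 genes expressed in most tissues. In the deposited ratios all 3 muscle forms and 8 of the 9 common genes were below 0 on every array. Only the median of the muscle forms kept its sign under every scaling, and a difference between the groups was not tested.

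The probes of *COX8B* and *COX6A2* are shown as examples of the muscle forms, and that for *NDUFA4L2*, a relative of a complex IV subunit, because this gene came nearest to the threshold among the uncalled genes found by name. Positions are on the EquCab1 genome as the deposited files give them, at chrUn:293757275-293757334 on the plus strand for *COX8B*, chr13:5843665-5843834 on the plus strand for *COX6A2* and chr6:71861963-71862130 on the minus strand for *NDUFA4L2*. Each probe has 60 bases, so the longer spans of 170 bases for *COX6A2* and 168 bases for *NDUFA4L2* mean that these probes match the genome in separate pieces. Capitals mark a closing stop codon.
COX8B: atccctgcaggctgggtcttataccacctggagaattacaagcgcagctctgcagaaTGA
COX6A2: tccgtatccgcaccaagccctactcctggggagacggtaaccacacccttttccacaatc
NDUFA4L2: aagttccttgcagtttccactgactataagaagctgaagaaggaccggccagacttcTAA

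*COX8B*, the muscle form of the smallest subunit, had ratios of -0.81, -0.78, -0.99 and -1.04. Every array showed less of its mRNA in HMB-treated cells, a mean of -0.90 or 1.87-fold lower (SD 0.13, *n* 4; adjusted *P* 0.00140). The gene was called in all 16 settings run, among them normexp correction with loess (-0.94) and no lowess normalisation (-0.80).

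*COX7A1*, the muscle form of subunit 7A, had -0.59, -0.37, -0.54 and -0.39. It was 1.39-fold lower (mean -0.47, SD 0.11, *n* 4; adjusted *P* 0.00707), both of its probes were called, and 15 of the 16 settings called it. *COX6A2*, the muscle form of subunit 6A, had -0.21, -0.39, -0.45 and -0.64. It was 1.34-fold lower (mean -0.42, SD 0.18, *n* 4; adjusted *P* 0.0177), with a call in 11 settings that was lost, for example, without array 2 or array 3. All 3 muscle forms were thus lower on every array and were called under all 3 scalings, with medians of -0.47 in the deposited ratios, -0.51 after normexp correction and loess and -0.48 without lowess normalisation. In RNA from a whole culture, fewer muscle cells and less of each mRNA per cell cannot be told apart, and the markers of muscle cells given further on were lower too.

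The 9 subunit genes of complex IV expressed in most tissues had a median of -0.24, which was -0.12 after normexp correction and loess and 0.28 without lowess normalisation. Of these, *COX5B*, *COX5A*, *COX6A1* and *COX6B1* were called lower, with means of -0.36, -0.33, -0.31 and -0.24 and adjusted *P* values of 0.0144, 0.0176, 0.0157 and 0.0343, but *COX5B*, *COX6A1* and *COX6B1* turned positive without lowess normalisation at 0.11, 0.43 and 0.32, the last 2 of them called higher there and not called after normexp correction and loess. *COX5A*, which like *COX5B* lies on the matrix side of the enzyme, went to -0.02 without lowess normalisation. On the arrays *COX5B* had -0.25, -0.31, -0.46 and -0.40, *COX5A* had -0.38, -0.32, -0.41 and -0.21, *COX6A1* had -0.33, -0.31, -0.37 and -0.25, and *COX6B1* had -0.19, -0.18, -0.30 and -0.29. Every one of the 5 tested probes of *COX5B*, *COX5A* and *COX6A1* was called, and 6 of the 13 of *COX6B1*, which lost its call with the mean of its probes. None of the 4 genes was called without array 2 or without array 3. *COX4I1*, the common form of subunit 4, lay between -0.09 and -0.00 and was called higher under both other scalings (0.25 and 0.76), and *COX7C*, the highest of the 12, had -0.35, -0.01, 0.06 and 0.36. *COX7A2L*, a factor that joins complexes III and IV, had a mean of 0.04 and was not called (adjusted *P* 0.744).

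**Figure D3:**
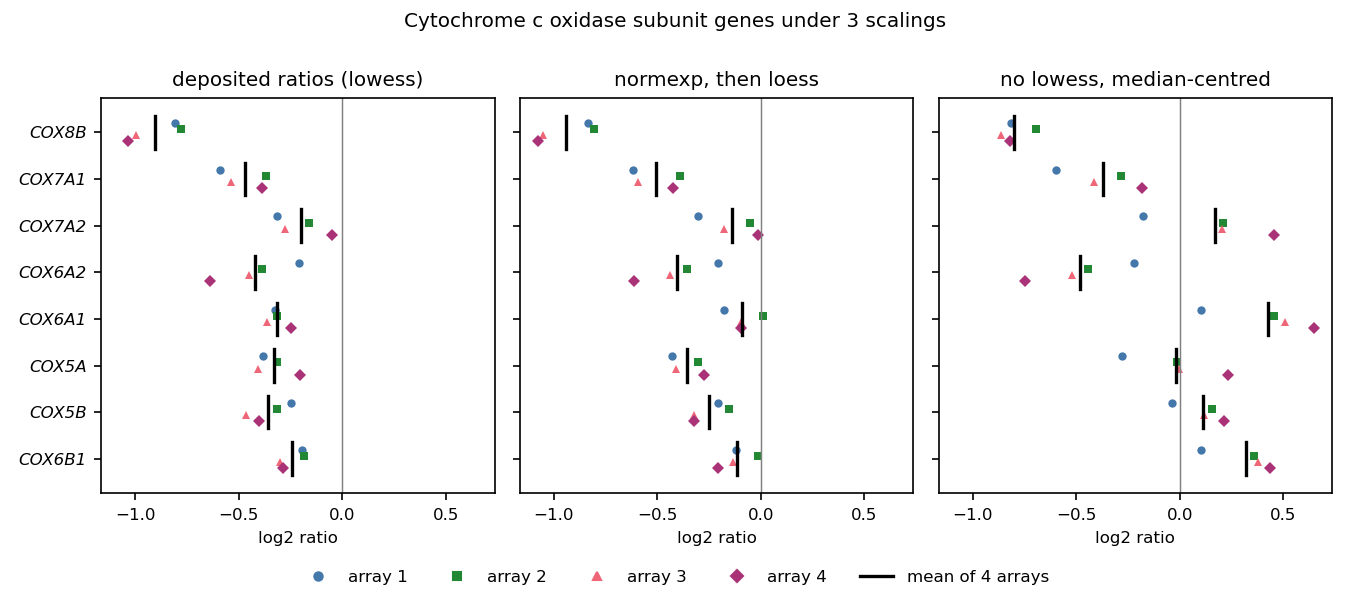
Log2 ratio of HMB-treated over control cells (horizontal axes) of 8 complex IV genes under 3 scalings, with coloured markers for the 4 arrays and a black bar for their mean. *COX8B*, *COX7A1* and *COX6A2* stay below 0 on every array in all panels, whereas *COX7A2*, *COX6A1*, *COX5B* and *COX6B1* cross to positive means without lowess normalisation.

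*NDUFA4L2* is the paralogue of *NDUFA4*, a protein first placed in complex I and now counted with complex IV, and is known to be induced by low oxygen. Its ratios were -0.01, -0.43, -0.38 and -0.43, near 0 on array 1 and alike on the others. The mean of -0.31 missed the threshold (SD 0.20, *n* 4; adjusted *P* 0.0515), and the gene was called in 5 of the 16 settings, among them the one without array 1 (-0.41).

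Isoforms of 1 subunit were compared within each array. The difference between the ratios of *COX7A1* and *COX7A2* was -0.27, -0.21, -0.26 and -0.34, a mean of -0.27 (SD 0.05, *n* 4; *P* 0.125 in a two-sided exact sign-flip test). The muscle form was the lower of the pair on every array, and 0.125 is the smallest *P* that 4 arrays can give, so this test cannot pass 0.05. Under the other scalings the mean difference was -0.37 and -0.54. *COX6A2* minus *COX6A1* was 0.12, -0.08, -0.08 and -0.39, a mean of -0.11 (SD 0.21, *n* 4; exact *P* 0.5), a difference within the spread between arrays, but -0.31 after normexp correction and loess and -0.91 without lowess normalisation. For *COX8B* the array has no named probe of *COX8A* to set beside it, and pairs with *COX4I2*, *COX6B2* or *NDUFA4* could not be formed either.

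Complex V, the ATP synthase, had 13 tested subunit genes under the names searched. Their median was -0.10 and turned to 0.33 without lowess normalisation, where 9 of the 13 were called higher, whereas none was called in the deposited ratios by limma and 4 had an unadjusted *P* of at most 0.05. The 4 genes of the F1 part, the gamma and epsilon subunits among them, had a median of -0.20. The 9 genes of the membrane sector and peripheral stalk had one of -0.04. But after normexp correction and loess both groups were level at -0.03 and -0.04, and both turned positive without lowess normalisation, at 0.42 and 0.31. *ATP5C1*, the rotating gamma subunit, had 0.04, -0.40, -0.42 and -0.25. Array 1 was above 0 and the others below it, and the mean of -0.26 was not called (SD 0.21, *n* 4; adjusted *P* 0.0914), though it was without array 1 (-0.36). The other probe of *ATP5C1* gave 0.03, and the mean over both probes was -0.11. *ATP5J2*, the f subunit, was the highest, with -0.09, 0.07, 0.06 and 0.17 (mean 0.05, adjusted *P* 0.600). *ATP5E*, the epsilon subunit, gave a mean of -0.14 with its named probe (adjusted *P* 0.163). The brightest probe of the same gene listed under another name gave -0.28 (adjusted *P* 0.0262), and 7 of 9 such probes were called. That probe was brighter than the named one, so *ATP5E* counts as uncalled only because named probes were used.

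The genes for subunit c of the ATP synthase encode the same mature protein behind different import signals. *ATP5G1* minus *ATP5G3* came to 0.04, -0.15, -0.10 and -0.23, with a mean of -0.11 (SD 0.11, *n* 4; exact *P* 0.25). *ATP5G2* minus *ATP5G3* came to 0.01, -0.13, 0.02 and -0.17, with a mean of -0.07 (SD 0.10, *n* 4; exact *P* 0.5). Neither difference had the same sign on all arrays in the deposited ratios, and the first was -0.26 after normexp correction and loess and -0.34 without lowess normalisation. A further 3 genes of complex V under other names, *ATP5MK*, *ATP5D* and *ATP5G2*, had means of -0.23, -0.15 and -0.05, and none was called. Without lowess normalisation *ATP5G2* was called higher at 0.64, and *ATP5MK* turned to 0.23 without a call. With an array left out, the mean of *ATP5MK* ran from -0.32 to -0.14.

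*ATP5SL* is a factor whose name only resembles those of the ATP synthase, since its product, now named DMAC2, takes part in the assembly of the membrane arm of complex I. Its probe is shown because it was the only gene of the 56 called higher, at chr10:11952543-11954108 on the minus strand, where 60 bases are spread over 1566 bases of genome.
ATP5SL: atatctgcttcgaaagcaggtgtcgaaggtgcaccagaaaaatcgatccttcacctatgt
The ratios were 0.40, 0.30, 0.15 and 0.27. It was higher with HMB on every array (mean 0.28, SD 0.11, *n* 4; adjusted *P* 0.0304), was called in 6 of 16 settings, and lost the call whenever an array was left out and under both other scalings (0.17 and 0.20). The gene rests on 1 probe, the dimmest of the 56, with Cy3 log2 intensities of 6.59, 6.51, 6.84 and 7.06 on arrays 1 to 4. *ATP5S*, the gene of related name, had a mean of 0.07 (adjusted *P* 0.470).

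**Figure D4:**
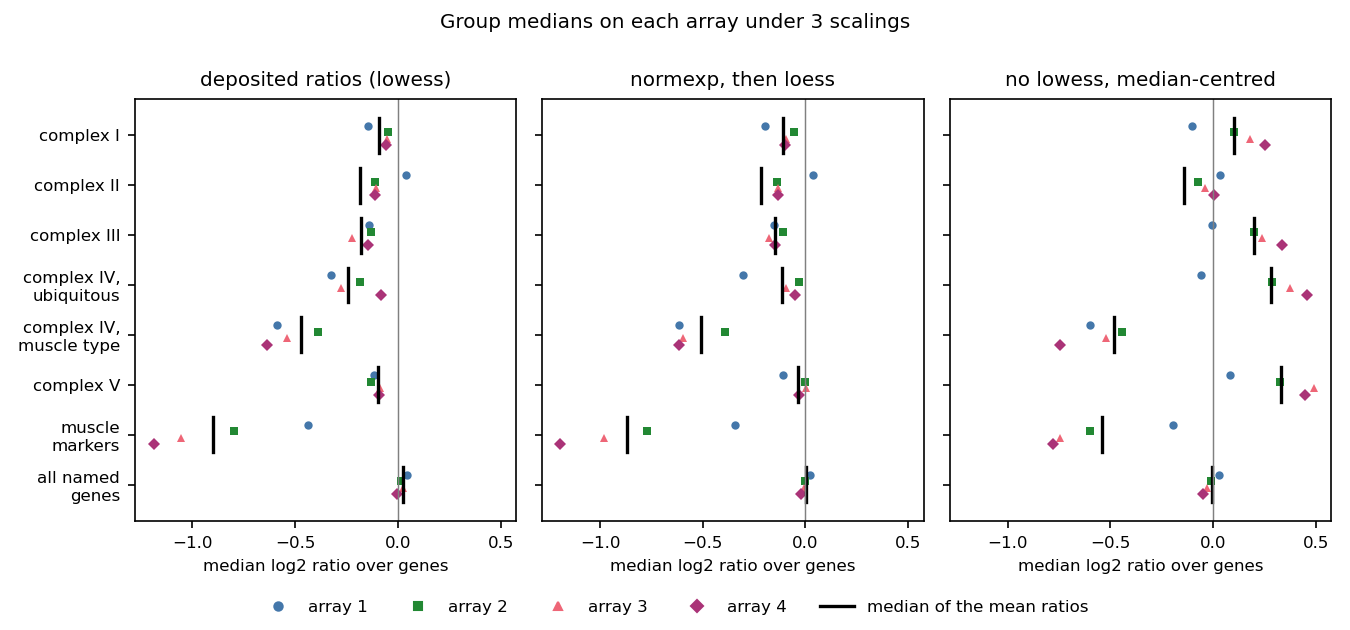
Median log2 ratio over the genes of each complex, the muscle markers and all named genes (horizontal axes) under 3 scalings, with coloured markers for the 4 arrays and a black bar for the median of the mean ratios. Complexes I, III and V and the common complex IV genes move from negative to positive medians without lowess normalisation, whereas complex II, the muscle forms of complex IV and the muscle markers stay negative.

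The mitochondrial genome supplies the remaining subunits, and 6 of them had tested probes. *COX2*, a core subunit of complex IV, had -0.22, -0.48, -0.68 and -0.49. It was called lower (mean -0.47, adjusted *P* 0.0147), but it had -0.10 and no call after normexp correction and loess and turned to 0.51, called higher, without lowess normalisation. *ND1*, *ND4*, *COX3*, *ATP6* and *CYTB* had means from -0.28 to 0.20 and were not called in the deposited ratios. Of the 6 genes 5 were called higher and 0 lower without lowess normalisation, and 1 higher and 0 lower after normexp correction and loess. The median of the 6 was -0.18 and turned to 0.09 after normexp correction and loess and to 0.50 without lowess normalisation.

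Factors that build the other complexes, or serve complex I under other names, were tested for 37 genes, with 4 called higher and 1 lower. These calls make 13.5% of the list, beside 22.6% of all named genes, and the difference was not tested. *BCS1L*, which inserts the iron-sulphur protein into complex III, had 0.43, 0.31, 0.32 and 0.43 (mean 0.37, adjusted *P* 0.0104). *FOXRED1* for complex I (mean 0.35, adjusted *P* 0.0445), *COX19* for copper delivery to complex IV (0.31, adjusted *P* 0.0461) and *COX15* for haem A synthesis (0.27, adjusted *P* 0.0225) also rose. *COX14*, which acts early in the assembly of complex IV, was lower (mean -0.29, adjusted *P* 0.0196), but had -0.06 and no call without lowess normalisation. Without it *FOXRED1*, *COX19* and *COX15* lost their calls too (0.29, 0.24 and 0.18), and 2 of the 37 genes were called higher and 0 lower. The median of the 37 genes was 0.06 and stayed between 0.03 and 0.06 under the 3 scalings.

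Electron carriers between the complexes were covered by 14 genes for cytochrome *c* and coenzyme Q synthesis, 1 higher and 3 lower (28.6% called, beside 22.6% of all named genes). Their median was 0.01, and it was -0.01 after normexp correction and loess. *CYCS*, somatic cytochrome *c*, had -0.28, -0.36, -0.52 and -0.24 and was called lower (mean -0.35, adjusted *P* 0.0187), but its mean was 0.04 without lowess normalisation. *COQ2*, which attaches the side chain to the quinone ring, fell by 0.40 on the log2 scale (adjusted *P* 0.0338), with little change on array 2 at -0.05. *COQ10B*, a coenzyme Q-binding protein, had -0.28, -0.15, -0.34 and -0.78 (mean -0.39, adjusted *P* 0.0485). It lost the call whenever an array was left out, and its mean was -0.26 without array 4. *PDSS1*, which makes that side chain, rose, with 0.27, 0.66, 0.58 and 1.26 (mean 0.69, adjusted *P* 0.0239).

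Of 13 tested nuclear regulators of these genes 4 were called higher and 2 lower (46.2% called, beside 22.6% of all named genes). Their median was 0.08, and it was 0.03 and 0.01 under the other scalings. Only 10 of the 13 were well above background with both dyes on every array, and of those 1 was called higher and 2 lower, a count made after the calls were known. *GABPB2*, a beta subunit of the GA-binding protein that activates many oxidative phosphorylation genes, had 0.96, 0.82, 1.05 and 1.20 (mean 1.01). *NRF1*, nuclear respiratory factor 1, had 1.16, 0.53, 0.70 and 1.23 (mean 0.91). *PERM1*, a muscle regulator induced by PGC-1 and oestrogen-related receptors, had 0.62, 0.61, 0.68 and 0.60 (mean 0.63). These 3 genes were called higher, but in the Cy3 channel of the control cells *PERM1* was well above background on 0 arrays, *GABPB2* on 2 and *NRF1* on 3. They reached the test only through Cy5, so their ratios and calls are uncertain. Normexp correction with loess brought the mean of *GABPB2* down to 0.41, that of *NRF1* to 0.37 and that of *PERM1* to 0.23.

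*TFB1M*, a methyltransferase of mitochondrial ribosomal RNA, rose by 0.22 (adjusted *P* 0.0420), whereas *TFB2M*, which starts mitochondrial transcription, fell by 0.27 (adjusted *P* 0.0418), with -0.19 and no call after normexp correction and loess. *PPARGC1B*, a coactivator of the programme, had -0.19, -0.35, -0.33 and -0.25 and was lower (mean -0.28, adjusted *P* 0.0241). *ESRRA*, its nuclear receptor partner, had -0.13, -0.17, -0.11 and -0.24 and was not called with its brightest probe (mean -0.16, adjusted *P* 0.0961). That probe was called after normexp correction and loess (-0.18), but had -0.08 and no call without lowess normalisation. In the deposited ratios 2 of the 5 *ESRRA* probes, which ran from -0.23 to -0.16, were called. *GABPA*, the DNA-binding partner of the GABP beta subunits, and *TFAM*, which packs mitochondrial DNA, had means of 0.09 and 0.08 and were not called (adjusted *P* 0.481 and 0.453). *PPARGC1A* was not above background and was not tested. A relation between the regulators and the subunit genes was not tested.

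**Figure D5:**
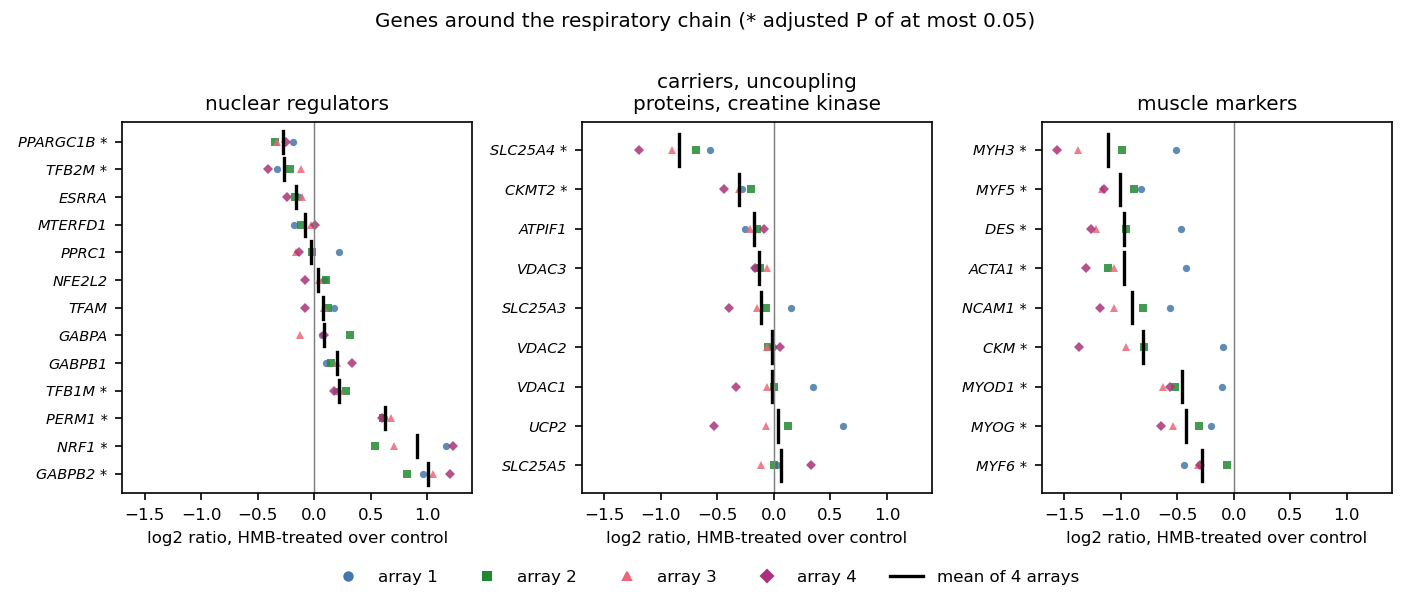
Log2 ratio of HMB-treated over control cells (horizontal axes) of nuclear regulators, carriers listed with channels and mitochondrial creatine kinase, and muscle markers, with coloured markers for the 4 arrays, a black bar for their mean and a star for called genes. *GABPB2*, *NRF1* and *PERM1*, none of them well above background in control cells on all 4 arrays and all with uncertain calls, lie above 0 on every array. The 9 muscle markers lie below 0 on every array.

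A list of carriers for ATP, ADP and phosphate, *UCP2*, mitochondrial creatine kinase, the ATP synthase inhibitor *ATPIF1* and the 3 *VDAC* channels of the outer membrane had 9 tested genes. With 0 called higher and 2 lower, 22.2% were called, beside 22.6% of all named genes. There were 3 higher and 2 lower without lowess normalisation. *SLC25A4*, the ADP/ATP carrier of heart and skeletal muscle, had -0.57, -0.69, -0.90 and -1.19. It was lower on every array (mean -0.84, SD 0.27, *n* 4; adjusted *P* 0.00538) and under each scaling (-0.88 and -0.55 in the others). *SLC25A5*, the carrier of dividing cells, had 0.03, 0.00, -0.11 and 0.32 and was not called (mean 0.06, adjusted *P* 0.635). *CKMT2*, the mitochondrial creatine kinase of sarcomeric muscle, fell as well (mean -0.31, adjusted *P* 0.0217). The median of the 9 genes was -0.12 and turned to 0.15 without lowess normalisation.

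The citric acid cycle, which feeds complexes I and II, had 1 of 13 tested genes called (7.7%, beside 22.6% of all named genes). Without lowess normalisation 2 were called higher and 0 lower. The gene called in the deposited ratios was *MDH2*, mitochondrial malate dehydrogenase, with -0.19, -0.32, -0.56 and -0.66 (mean -0.43, adjusted *P* 0.0227, but -0.11 and not called without lowess normalisation). In glycolysis 6 of 17 genes were called, all lower, beside 11.2% of all named genes that were lower. But 7 were called higher and 3 lower without lowess normalisation. The median of -0.07 became 0.00 after normexp correction and loess and 0.20 without lowess normalisation. The largest falls were those of the muscle forms *PGAM2* (mean -0.93, adjusted *P* 0.0100) and *ENO3* (-0.52, adjusted *P* 0.0308), which were also called lower under both other scalings. *PGK1* and *ALDOA*, with means of -0.30 and -0.29 (adjusted *P* 0.0235 and 0.0429), were positive and called higher without lowess normalisation at 0.39 and 0.61 and were not called after normexp correction and loess.

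Ribosomal proteins served as lists of comparison. Of the 67 mitochondrial ones 8 were higher and 1 lower, with a median of 0.10 that stayed positive under the other scalings (0.07 and 0.14). In all 13.4% were called, beside 22.6% of all named genes (11.4% higher and 11.2% lower). *MRPS6*, *MRPS16*, *MRPL46* and *MRPL2* had the largest rises (means of 0.35, 0.32, 0.30 and 0.29), and *MRPL20* was lower (mean -0.23), though not called without lowess normalisation (-0.18). Of the 74 cytosolic ones 10 were higher and 2 lower (16.2% called), with a median of 0.10. But 46 were higher and 1 lower after normexp correction and loess (median 0.36) and 68 higher and 1 lower without lowess normalisation (median 0.91). *RPL10L*, *RPS18*, *RPL7A* and *RPS27A* had the largest rises in the deposited ratios (0.42, 0.39, 0.34 and 0.34). *RPS18*, *RPL7A* and *RPS27A* had at least 1.24 without lowess normalisation, and *RPL10L* was not called after normexp correction and loess (0.20). *RPL3L*, the form of *RPL3* found in heart and skeletal muscle, was lower (-0.85, adjusted *P* 0.00240), as was *RPS3A* (-0.26, adjusted *P* 0.0404, but 0.21 without lowess normalisation).

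Markers of skeletal muscle moved in the same direction as the muscle forms of complex IV. All 9 with a tested probe were called lower, beside 11.2% of all named genes. Their medians were -0.44, -0.80, -1.06 and -1.19 on arrays 1 to 4, and all 9 were called lower under each scaling. The count was 5 without array 2 or array 3, 2 without the filter on dim probes and 0 when each probe was tested on its own ratios. *MYH3*, the embryonic myosin heavy chain and the brightest of them, had -0.51, -0.99, -1.38 and -1.57 (mean -1.11, adjusted *P* 0.00846). *MYF5*, *DES* and *ACTA1* had means of -1.01, -0.98 and -0.98. Without lowess normalisation *MYH3* had -0.42 and *ACTA1* -0.43, and the marker median of -0.90 became -0.54, compared with -0.87 after normexp correction and loess. Among the 9, *MYF6* fell least (-0.28, adjusted *P* 0.0471). The log2 ratio of the summed intensities of the 9 markers was -0.46 on array 1, -1.22 on array 3 and -1.41 on array 4, with array 2 between the first and the second of these. *PAX7*, *TNNT1* and *MYMK* had no probe of that name. The part of the muscle markers in the lower *COX8B*, *COX7A1*, *COX6A2* and *SLC25A4* was not tested. The marker median was nearest to 0 on array 1, and so were the ratios of *COX6A2* and *SLC25A4*, whereas *COX7A1* was at its lowest there and *COX8B* was nearest to 0 on array 2.

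Of the other cell types, fibroblast markers had 7 tested genes, 2 of them higher, beside 11.4% of all named genes that were higher. *PDGFRA* had 1.09, 1.38, 1.46 and 2.19 (mean 1.53, adjusted *P* 0.00358, but 0.89 after normexp correction and loess) and *FAP* had 0.57, 0.48, 0.45 and 0.16 (mean 0.42, adjusted *P* 0.0185). *COL1A2*, the brightest of the list, was not called with its brightest probe (mean -0.20, adjusted *P* 0.247), but 2 of its 9 probes, which ran from -0.59 to -0.20, were called. The summed intensities of the list gave log2 ratios of 0.27, -0.11, -0.13 and -0.47. Of the smooth muscle markers *SMTN* was not called, and *MYH11* was called lower with -0.89, -0.83, -0.54 and -2.45 (mean -1.18, adjusted *P* 0.0368), a mean that was -0.76 without array 4. Its Cy5 signal was well above background on only 3 arrays, and normexp correction with loess gave -0.45, so this ratio is uncertain. The leukocyte markers *CD14* and *CD68* were not called. The 5 endothelial and 3 adipocyte markers on the array, among them *PECAM1* and *ADIPOQ*, were not above background on enough arrays to be tested.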

How the data were processed

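Total RNA of HMB-treated and control ESC was compared on 4 arrays of 60-base probes. The files deposited for each array are Feature Extraction output (version 10.10.1.1 by their headers), with mean and median spot intensities for both dyes before and after background subtraction. The deposited ratios are log10 values of Cy5 over Cy3 made by the authors with background subtraction and a linear and lowess dye normalisation, and they were multiplied by 3.32 to give log2 ratios. Between 11 and 32 spots per array carried a mark for uneven signal or as population outliers and were not used, and no spot was saturated. The median over spots of signal over background was 3.16 to 3.82 in Cy3 and 4.68 to 5.85 in Cy5, and the number of arrays limits the precision.

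Testing required a signal well above background with the same dye on each of the 4 arrays and a ratio on 3 or more. Ratios were tested two-sided against 0 with limma 3.58.1 (R 4.3.3), as an intercept with moderated variance, and *P* values were adjusted by the Benjamini and Hochberg method over the 27384 tested probes. The tested probe of highest mean intensity stands for its gene, and errors are SD over arrays. For genes found by name only probes under that name were used, although *ATP5E* and *NDUFB2* had a brighter probe under another name. Isoform differences were tested with an exact sign-flip test. Values were summarised with Python 3.11.15, pandas 2.3.3 and numpy 2.4.6 and drawn with matplotlib 3.10.9.

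Names came from the deposited files for 24962 probes, from the RefSeq table of symbols for 2121 and from probe descriptions for 40, and 16480 probes had none. The medians of complexes I, II and V are those of genes found by name and cover subunits only, while those of complexes III and IV come from the further genes, which were added after the names in the files had been seen.

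The subunit genes named are those called, those of isoform pairs and, among genes found by name and among the further genes, the highest mean above 0 and the lowest below 0 in each complex, with its factors included. Of the other lists, up to 4 called genes in each direction and *PPARGC1A*, *PPARGC1B*, *ESRRA*, *NRF1*, *GABPA*, *TFAM* and *CYCS* are named. *NDUFS3*, *NDUFA7*, *NDUFA13*, *UQCRB*, *UQCRC1*, *ATP5J2*, *SDHB*, *SDHC*, *ATP5S*, *COX4I1*, *COX7C*, *SLC25A5* and other genes outside this rule were picked with their values in view. The members and lists were chosen with earlier results of these data known.

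The alternatives were normexp correction (offset 50) with loess, no lowess with ratios centred on each array's median, a test of each probe on its own ratios, an intensity trend with a robust prior, channels unpaired, dim probes kept, a filter on both dyes, use of marked spots, ratios from the summary table, a minimum of 1.3-fold, the mean of a gene's probes, and each array left out. Counts in complexes III and IV, of muscle markers and of regulators bright with both dyes were added as results after the data had been seen. Promoter motifs were not searched, since no table of promoters was at hand.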

Additional observations from a re-analysis of the deposited data

Results flagged for a closer look

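In 140 sets of 4 array values, the gap between the highest or lowest array and its nearest neighbour was divided by the range, and 8 sets were above the limit of Dixon's test. Chance puts about 1 in 20 such sets above it, and the sets are not independent, since they share the 4 arrays. *NDUFA4L2* stood out with 0.890 through array 1 (-0.01, against -0.38 to -0.43), *NDUFA12* with 0.844 through array 1 (-0.21) and *UQCR11* with 0.868 through array 2 (-0.12). *COX7A2L* reached 0.935 through array 2, at -0.23 where the other arrays were at 0.12 to 0.15. *PERM1* reached 0.842 through array 3 (0.68), in a set whose values differ little. Among the medians, complex I had 0.886 through array 1 (-0.15), complex II 0.969 through array 1 (0.04, against -0.11 on each of the others) and complex III 0.847 through array 3 (-0.22). The cause of these gaps was not tested.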

How the results depend on the processing

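Of the 65 genes picked by the rule for genes named in the text, 50 were called. Of these, 33 kept the call and its direction without lowess normalisation, where 8 had a mean in the opposite direction, 41 after normexp correction with loess, 49 with an intensity trend, 21 with unpaired channels, 25 without the filter on dim probes, 43 with the mean of a gene's probes, 24 with the minimum fold, 35, 16, 14 and 36 without arrays 1 to 4 in turn, and 4 when each probe was tested on its own ratios, while marked spots and the summary table changed none. The 6257 probes called on the whole array became 768 with each probe on its own ratios (8435 before adjustment), 2226 unpaired, 3690 without the filter, 3863 with the minimum fold and 2564 to 4981 with an array left out, the lowest without array 2 and 2729 without array 3.

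Of the genes found by name, 2 were called, compared with 8 after normexp correction, 12 without lowess, 6 with the trend, 1 with the mean of probes, 0 with each probe on its own ratios, unpaired or with the minimum fold, and 0 to 3 with an array left out. Without lowess the medians were 0.14 for these genes, 0.10, 0.20, 0.14 and 0.33 for complexes I, III, IV and V, and after normexp correction -0.13 and -0.037 for complexes IV and V. With an array left out, the medians ran from -0.11 to -0.040 for complex I, from -0.25 to -0.059 for complex II and from -0.11 to -0.078 for complex V.

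The 7 complex IV calls, counted after the data had been seen, became 3 higher and 3 lower without lowess, 1 higher and 5 lower after normexp correction, 2 with each probe on its own ratios, 4 unpaired, 3 with the minimum fold and 2 to 7 with an array left out, the 2 being *COX8B* and *COX7A1* without array 2 or array 3. Without lowess, ratios turned to 0.11 for *COX5B*, 0.43 for *COX6A1*, 0.32 for *COX6B1*, 0.31 for *ATP5G1*, 0.64 for *ATP5G2*, 0.036 for *CYCS*, 0.51 for *COX2*, 0.39 for *PGK1*, 0.61 for *ALDOA* (0.039 after normexp correction) and 0.21 for *RPS3A*. *ATP5MK*, not called in any of these scalings, turned to 0.23. The cause was not tested. Signal over background limits dim probes most, and dyes were never exchanged. The RNA spike-in controls that the paper names were not examined, so which scaling is right was not settled here.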
